A study of Mus musculus with 42 samples.

Results

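Orosomucoids, serum amyloids and other acute phase transcripts were followed in the livers of mice that lacked or carried ChemR23, the receptor for resolvin E1 (RvE1). The set was fixed by gene symbol and held 10 of the 19756 gene names listed, namely Orm1, Orm2, Orm3, Saa1, Saa2, Saa3, Lcn2, Hp, Hpx and Apcs. All 10 were listed in each of the 6 deposited tables and passed the filter on low values in every comparison.

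Whole liver RNA came from 42 male C57BL/6J mice, 7 in each of 6 groups, with 1 library per mouse. Wildtype (WT) lean and ChemR23 knockout (KO) lean mice ate a diet with 10% of its energy as fat, and WT obese and KO obese mice ate a diet with 60%, in both cases for 15 weeks from 6 weeks of age. These 4 groups received intraperitoneal vehicle, which was ethanol in PBS, on 4 days, while WT obese+RvE1 and KO obese+RvE1 mice received 300 ng of RvE1, and livers were taken on day 5 after a fast. The KO of Cmklr1, which encodes ChemR23, was made with CRISPR, and WT mice were littermates. Between 15992525 and 43841120 reads per mouse fell on listed genes, with group medians of 19796716 in WT lean, 21884150 in WT obese, 31121723 in WT obese+RvE1, 25483612 in KO lean, 23400717 in KO obese and 22999850 in KO obese+RvE1 mice. Values are normalized read counts, that is reads divided by a size factor set separately in each table, so groups were compared only within a table. A log2 fold change (FC) is a difference of mean log2(normalized count + 1), which understates the change of genes with few reads. A gene passed at a Benjamini-Hochberg (BH) adjusted p below 0.1 over all genes tested with limma.

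The acute phase response is a program in which hepatocytes change their secretion when cytokines such as IL-6 and IL-1 reach the liver. IL-6 acts through gp130, JAK kinases and STAT3, and IL-1 through NF-kB, and both converge on C/EBP transcription factors at the promoters of acute phase genes. The orosomucoids (Orm1 to Orm3) are lipocalins that carry lipophilic compounds in plasma, and lipocalin 2 (Lcn2) binds bacterial siderophores. Serum amyloids A1 and A2 (Saa1, Saa2) travel on high density lipoprotein, and Saa3 is also made outside hepatocytes, by macrophages among others. Haptoglobin (Hp) binds free hemoglobin and hemopexin (Hpx) free heme. Serum amyloid P component (Apcs) is a pentraxin and a major acute phase protein of the mouse.

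The Orm genes lie in tandem on the plus strand of chromosome 4 (GRCm38, the build also called mm10), Orm1 at chr4:63344560-63348163, Orm3 at chr4:63356162-63359511 and Orm2 at chr4:63362449-63365878. Saa3 (chr7:46711998-46715700, minus strand), Saa1 (chr7:46740497-46742980, minus strand) and Saa2 (chr7:46751790-46754313, plus strand) are neighbours on chromosome 7. Lcn2 is at chr2:32384633-32388252, Hp at chr8:109575128-109579172, Hpx at chr7:105591613-105600137 and Apcs at chr1:172893961-172895041, each on the minus strand. No exon of these genes overlapped an exon of another annotated gene.

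Within both families the coding sequences are alike enough that a read can fit more than 1 gene. Orm1 and Orm2 were identical at 89.9% of aligned coding bases, Orm1 and Orm3 at 86%, and Orm2 and Orm3 at 87.9%, while Saa1 and Saa2 were identical at 95.1% and Saa1 and Saa3 at 75.9%. Of all stretches of 50 bases in its main transcript, Orm1 shared 20.4% with a transcript of another gene, Orm2 22.7%, Orm3 3.59%, Saa1 14.8%, Saa2 13.3% and Saa3 1.78%. Lcn2, Hp, Hpx and Apcs shared none. Of stretches of 100 bases, Orm1 and Orm2 each shared 6.95%, with each other, and Orm3 and the Saa genes 0. The sources used here do not say how pairs that fit several places were counted, so the split between Orm1 and Orm2, and for short fragments that between Saa1 and Saa2, is uncertain. Orm3 and Saa3 shared few stretches, but had low counts beside Orm1 and Saa1. In WT lean mice the medians were 22.3 for Orm3 and 28.5 for Saa3, against 4390 for Orm1 and 2047 for Saa1. A few misplaced reads could thus weigh more on Orm3 and Saa3, which was not tested. The stretches below show how close the families are. They are the last 120 coding bases before the stop codon of Orm1 and Orm2 and the first 120 coding bases of Saa1 and Saa2, in transcript direction, spliced across an intron within chr4:63346344-63348047, chr4:63364224-63365762, chr7:46741366-46742522 and chr7:46752291-46753446. Capitals mark bases that differ from the first gene of the family.
Orm1: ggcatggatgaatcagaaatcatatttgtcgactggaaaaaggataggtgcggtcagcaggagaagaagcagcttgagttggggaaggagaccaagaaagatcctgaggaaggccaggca
Orm2: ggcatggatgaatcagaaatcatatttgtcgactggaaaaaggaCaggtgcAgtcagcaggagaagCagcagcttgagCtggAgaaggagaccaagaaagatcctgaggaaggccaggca
Saa1: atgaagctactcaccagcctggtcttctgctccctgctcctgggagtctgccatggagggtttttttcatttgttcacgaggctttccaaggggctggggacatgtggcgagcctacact
Saa2: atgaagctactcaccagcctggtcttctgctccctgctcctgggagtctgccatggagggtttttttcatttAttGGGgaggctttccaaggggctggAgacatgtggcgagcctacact
In these stretches Orm2 differed from Orm1 at 5 bases, and Saa2 from Saa1 at 5.

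The 250 bases before the transcription start were searched for 4 motifs on both strands in the 8 members with a RefSeq promoter entry (GRCm38.p6), which are those other than Orm1 and Hp. The C/EBP letters TTGCNNAA were found in 7 of the 8, with Apcs as the exception, and in 9.56% of 32851 mouse promoters. The STAT letters TTCNNNGAA were found in Apcs alone and in 7.02% of promoters. The letters CTGGGA, an IL-6 responsive element, were also found in Apcs alone, at 2 places, and in 27% of promoters. No member held the NF-kB letters GGGNNTTTCC, present in 1.41% of promoters. No overlap between matches of different motifs was seen. These are letter matches in a short window, and members of a family are not independent, since the windows of Orm2 and Orm3 were 85.5% identical and those of Saa1 and Saa2 94.8%. The windows from 200 to 51 bases before the start are shown for these 4 members, with the C/EBP match in capitals. They lie at chr4:63355958-63356107 and chr4:63362249-63362398 on the plus strand, chr7:46743031-46743180 on the minus strand and chr7:46751633-46751782 on the plus strand.
Orm3: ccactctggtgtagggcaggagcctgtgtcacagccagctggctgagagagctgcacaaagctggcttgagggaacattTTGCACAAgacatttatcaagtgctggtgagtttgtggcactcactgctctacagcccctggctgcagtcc
Orm2: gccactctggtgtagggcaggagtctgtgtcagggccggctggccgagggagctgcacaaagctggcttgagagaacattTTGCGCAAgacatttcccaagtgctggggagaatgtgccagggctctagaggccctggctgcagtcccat
Saa1: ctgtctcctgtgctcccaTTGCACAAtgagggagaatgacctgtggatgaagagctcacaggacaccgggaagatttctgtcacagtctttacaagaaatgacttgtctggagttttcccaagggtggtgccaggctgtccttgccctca
Saa2: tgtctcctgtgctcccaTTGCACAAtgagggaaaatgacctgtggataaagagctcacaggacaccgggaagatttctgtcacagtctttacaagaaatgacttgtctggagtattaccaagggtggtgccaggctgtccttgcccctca
The match lies at bases -121 to -114 in Orm3 and -120 to -113 in Orm2, and at -182 to -175 in Saa1 and -183 to -176 in Saa2.

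The labels of genotype and tissue were checked first. The normalized count of Cmklr1 was 12.7 ± 4.69 (SD, n = 7) in the KO lean group against 64.3 ± 25.1 (SD, n = 7) in the WT lean group, a log2 FC of -2.23 (SE 0.24, limma adjusted p = 0.000492). Among obese mice it was 14.5 ± 5.96 (SD, n = 7) in KO against 62.0 ± 24.2 (SD, n = 7) in WT livers, a log2 FC of -2.04 (SE 0.31, limma adjusted p = 0.0339). In both cases every KO mouse lay below every WT mouse. With the leading number of the mouse identifiers as a random block, the log2 FC was -2.25 in lean mice (limma adjusted p = 0.00181). Among obese mice it was then -2.16 and did not pass (limma adjusted p = 0.153). All 7 hepatocyte markers were listed, led by Alb with group means from 608070 to 807216 normalized counts, each scaled within its own diet or RvE1 table. In whole liver, fewer cells of a type and less RNA per cell cannot be told apart.

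In WT lean liver the members differed widely in abundance, with Hp highest and Orm3 lowest. Per kb of main transcript, the median normalized count was 61699 for Hp, 35548 for Hpx, 5665 for Orm1, 4712 for Apcs, 3361 for Saa1, 1706 for Saa2, 209 for Orm2, 165 for Lcn2, 51.4 for Saa3 and 28.9 for Orm3. Ranges over the 7 mice overlapped between neighbours in this order, except between Hpx and Orm1 and between Saa2 and Orm2. By group median, Hp and Hpx held the first and second place in all 6 groups. This did not hold in every mouse, since Saa1 per kb was above both in WT obese mouse 6R. In KO obese liver the order of medians below Hp and Hpx was another one, with 35494 per kb for Saa1, 17726 for Saa2, 6755 for Orm1, 5170 for Apcs, 1673 for Lcn2, 428 for Orm2, 427 for Orm3 and 128 for Saa3.

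**Figure D1:**
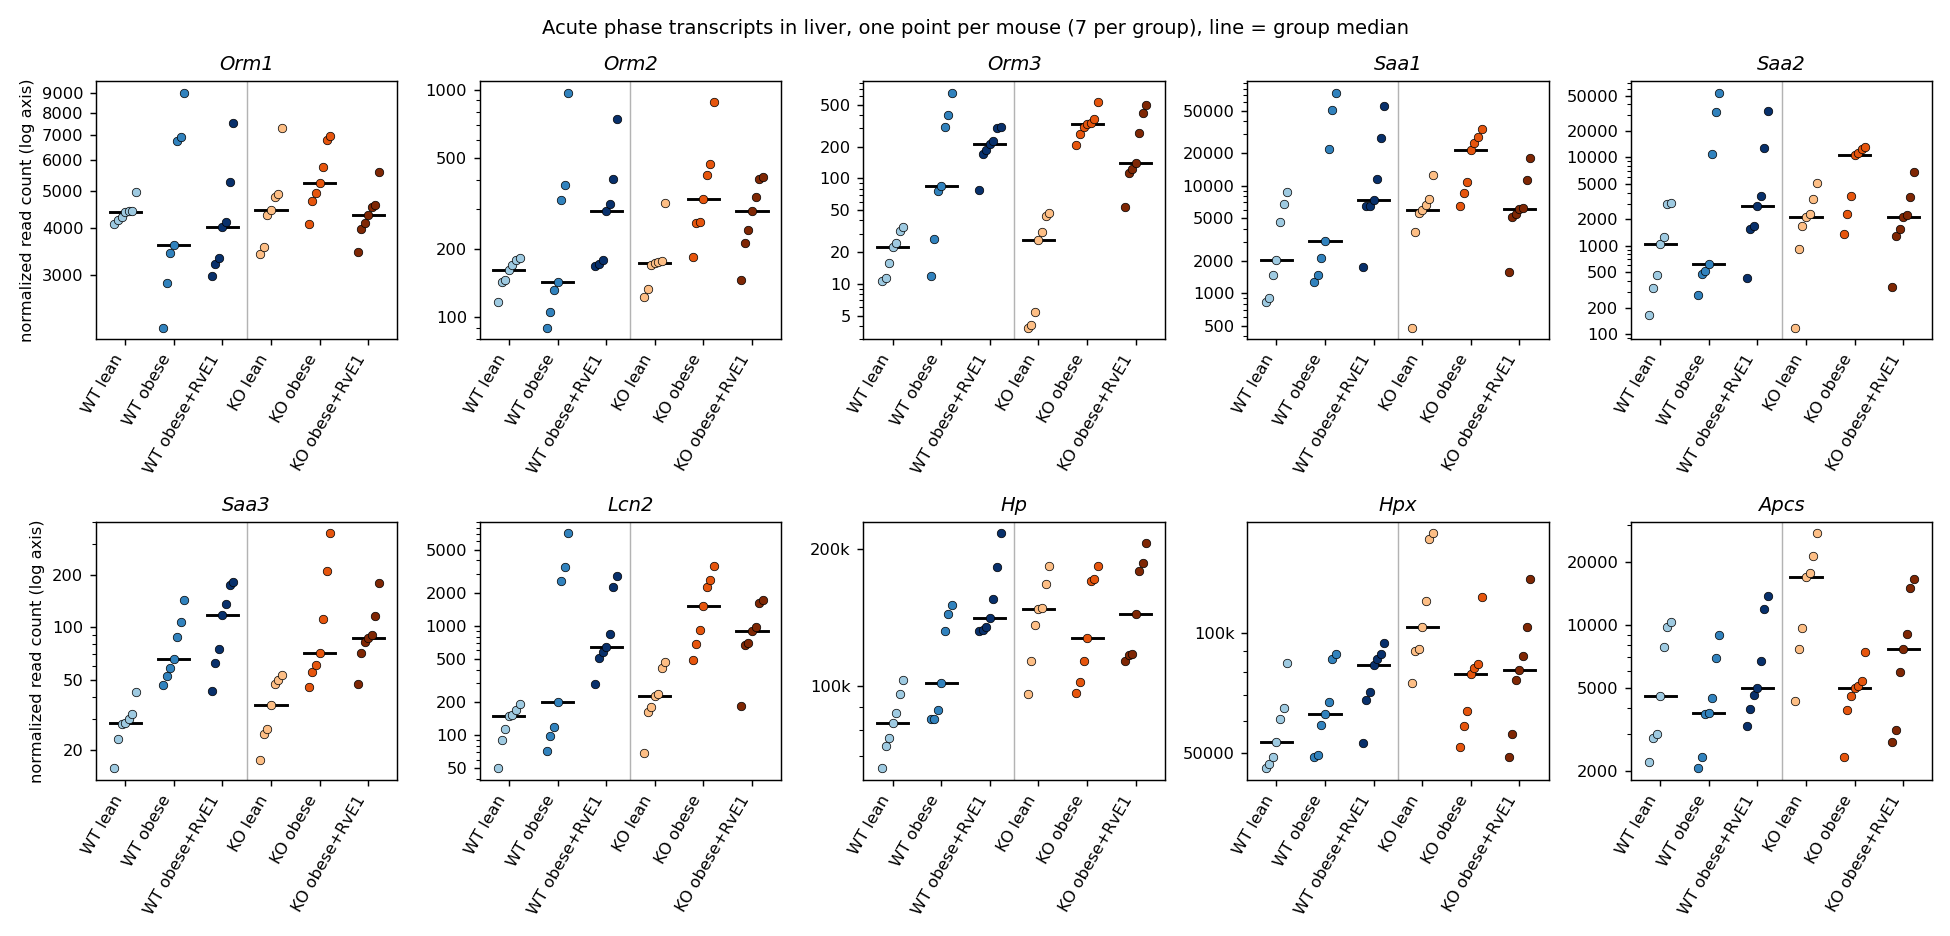
Normalized read count (log axis) of each member in each mouse, in a panel per gene, with the 6 groups on the x axis and a line at the group median. Orm3 was between 207 and 531 in KO obese and at most 47.6 in KO lean mice, and the WT obese mice were spread widely for Saa1, Saa2 and Lcn2.

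The first comparison asked how a high fat diet changed these transcripts in WT mice. Saa3 and Orm3 rose in WT obese mice, and the other 8 members did not pass. Saa3 ran from 15.7 to 43.0 normalized counts with a median of 28.5 in WT lean mice, and from 46.9 to 144 with a median of 65.8 in WT obese mice. Every WT obese mouse was above every WT lean mouse. Its means were 80.4 ± 35.1 (SD, n = 7) and 28.6 ± 8.34 (SD, n = 7), a log2 FC of 1.41 (SE 0.26, limma adjusted p = 0.0062). Orm3, the least abundant orosomucoid, ran from 10.6 to 34.8 with a median of 22.3 in WT lean and from 12.0 to 649 with a median of 84.4 in WT obese mice. The groups overlapped, since WT obese mice 27RL and 6L, at 12.0 and 26.5, lay within the lean range. Its means were 222 ± 239 (SD, n = 7) and 21.6 ± 9.56 (SD, n = 7), a log2 FC of 2.40 (SE 0.71, limma adjusted p = 0.0792). These 2 of 10 members stood against 6.27% of all 14012 genes tested; 3.65% of all tested genes were higher in WT obese mice, and Saa3 was among 1.36% of genes whose groups did not overlap. The members' median log2 FC was 0.94 and that of all genes 0.00.

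The call on Orm3 in WT mice was close to the threshold. With 1 mouse left out in turn, it passed in 3 of 14 fits, those without WT lean mouse 26L or WT obese mice 27RL or 6L, with adjusted p between 0.017 and 0.141. It also did not pass when the leading number of the mouse identifiers was added as a random block, where 1 member, Saa3, and 1.99% of genes passed. The meaning of that number is not in the labels.

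Most members were unevenly high among WT obese mice. Saa1 was 73081 normalized counts in mouse 6R, 51012 in 27-2R and 21835 in 22L, but between 1281 and 3052 in the other 4, against 835 to 8822 in WT lean mice. Lcn2 was 7068, 3488 and 2592 in the same 3 mice and between 72.5 and 203 in the other 4, against 49.9 to 192 in WT lean mice. Thus 4 of 7 WT obese mice were at or close to lean levels for both genes, and mice that shared the identifier numbers 6 and 27 were found at both ends. The highest WT obese mouse exceeded the lowest 57.0-fold for Saa1, 194-fold for Saa2, 97.5-fold for Lcn2 and 54.1-fold for Orm3. Over the other 5 groups the same ratios ran from 5.16 to 31.7 for Saa1, 9.66 to 77.4 for Saa2, 3.85 to 9.66 for Lcn2 and 2.57 to 12.3 for Orm3, with WT obese+RvE1 mice highest for Saa1, Saa2 and Lcn2 and KO lean mice for Orm3. The summed level of the neutrophil markers in the 3 high mice was 112 in 6R, 254 in 27-2R and 325 in 22L, against 54.0 to 165 in the other 4, and its part in these values was not tested.

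With this spread, log2 FCs in WT mice had wide intervals. Lcn2 had a log2 FC of 2.11 (SE 0.93, limma adjusted p = 0.237), Saa2 1.63 (SE 1.16, limma adjusted p = 0.490) and Saa1 1.52 (SE 0.92, limma adjusted p = 0.405). Tests on recovered reads passed more members: edgeR passed 3, adding Lcn2, against 6.41% of all genes, and DESeq2 passed 5, adding Saa1 and Saa2 as well, against 9.76%. The log2 FC of Lcn2 was 3.89 in both tests, and DESeq2 gave 3.42 for Saa2 and 2.60 for Saa1. Hp had a log2 FC of 0.40, Orm2 0.47, Hpx 0.18, Apcs -0.27 and Orm1 0.01, with limma adjusted p between 0.277 and 0.989. Orm1 was 4390 at the median in WT lean and 3602 in WT obese mice, with a range of 2186 to 9030 in the latter.

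The same diet comparison in KO mice passed 8 of 10 members. Orm3, Lcn2, Saa3, Orm2, Saa1 and Saa2 rose, Apcs and Hpx fell, and Orm1 and Hp did not pass. With identifier numbers as a random block 4 passed, Orm3, Lcn2, Saa3 and Apcs, where 7.44% of all genes did. Without the block 24.1% of 14213 genes tested passed, 12.0% higher and 12.1% lower, so the background was also high. The members' median log2 FC was 1.27 and that of all genes -0.00.

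Orm3 had the largest log2 FC among the members. In KO lean mice it was 3.87 to 5.38 normalized counts in 14-2L, 14RL and 9RL and 26.2 to 47.6 in the other 4, and in KO obese mice it ran from 207 to 531 with a median of 330. The groups did not overlap, as in 2.10% of all genes. The log2 FC was 4.31 (SE 0.51, limma adjusted p = 0.00126). Lcn2 did not overlap either, with 69.5 to 466 and a median of 230 in KO lean and 493 to 3579 and a median of 1531 in KO obese mice. Its log2 FC was 2.69 (SE 0.45, limma adjusted p = 0.00348). The summed neutrophil markers had a median of 380 in KO obese and 221 in KO lean mice, with highest values of 1237 and 362, and 0 of 7 passed in limma, with 1 at an unadjusted p below 0.05. Their part in the values of Lcn2 and the Saa genes was not tested.

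The serum amyloid genes rose in KO mice with overlap between the groups. Saa1 ran from 482 to 12560 normalized counts with a median of 5897 in KO lean and from 6541 to 33750 with a median of 21616 in KO obese mice, a log2 FC of 1.86 (SE 0.57, limma adjusted p = 0.0389). Saa2 ran from 119 to 5113 with a median of 2122 and from 1365 to 13182 with a median of 10742, a log2 FC of 1.98 (SE 0.71, limma adjusted p = 0.0702). Their sum rose by a log2 FC of 1.89 (SE 0.60, limma adjusted p = 0.0456). With identifier numbers as a random block Saa1, Saa2 and their sum did not pass, with limma adjusted p of 0.124, 0.182 and 0.136. Saa3 went from 36.4 ± 14.2 (SD, n = 7) to 128 ± 110 (SD, n = 7), a log2 FC of 1.51 (SE 0.41, limma adjusted p = 0.024). Orm2 went from 181 ± 63.9 (SD, n = 7) to 402 ± 234 (SD, n = 7), a log2 FC of 1.04 (SE 0.28, limma adjusted p = 0.0254). With the random block Orm2 had a log2 FC of 1.02 and did not pass (limma adjusted p = 0.106).

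Apcs and Hpx moved the other way. Apcs ran from 4321 to 27362 normalized counts with a median of 16902 in KO lean and from 2329 to 7452 with a median of 5020 in KO obese mice, a log2 FC of -1.48 (SE 0.35, limma adjusted p = 0.0145). Hpx ran from 74781 to 178038 with a median of 103375 and from 51746 to 123032 with a median of 79004, a log2 FC of -0.60 (SE 0.24, limma adjusted p = 0.0979). Both groups overlapped for both genes. Hp, with a log2 FC of -0.06 (SE 0.22), had a 95% interval from -0.51 to 0.40.

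Orm3, Lcn2, Saa3, Orm2, Saa1 and Apcs passed with any 1 of the 14 mice left out, Saa2 in 8 and Hpx in 5 of 14 such fits. Saa2 did not pass without KO lean mice 14RL or 20L or KO obese mice 10-2L, 23L, 31L or 31N, with adjusted p up to 0.122. Hpx passed only without KO lean mice 14-2L, 14RL or 20R or KO obese mice 10-2L or 23L. With identifier numbers as a random block, Orm3, Saa3, Lcn2 and Apcs passed, against 7.44% of all genes.

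**Figure D2:**
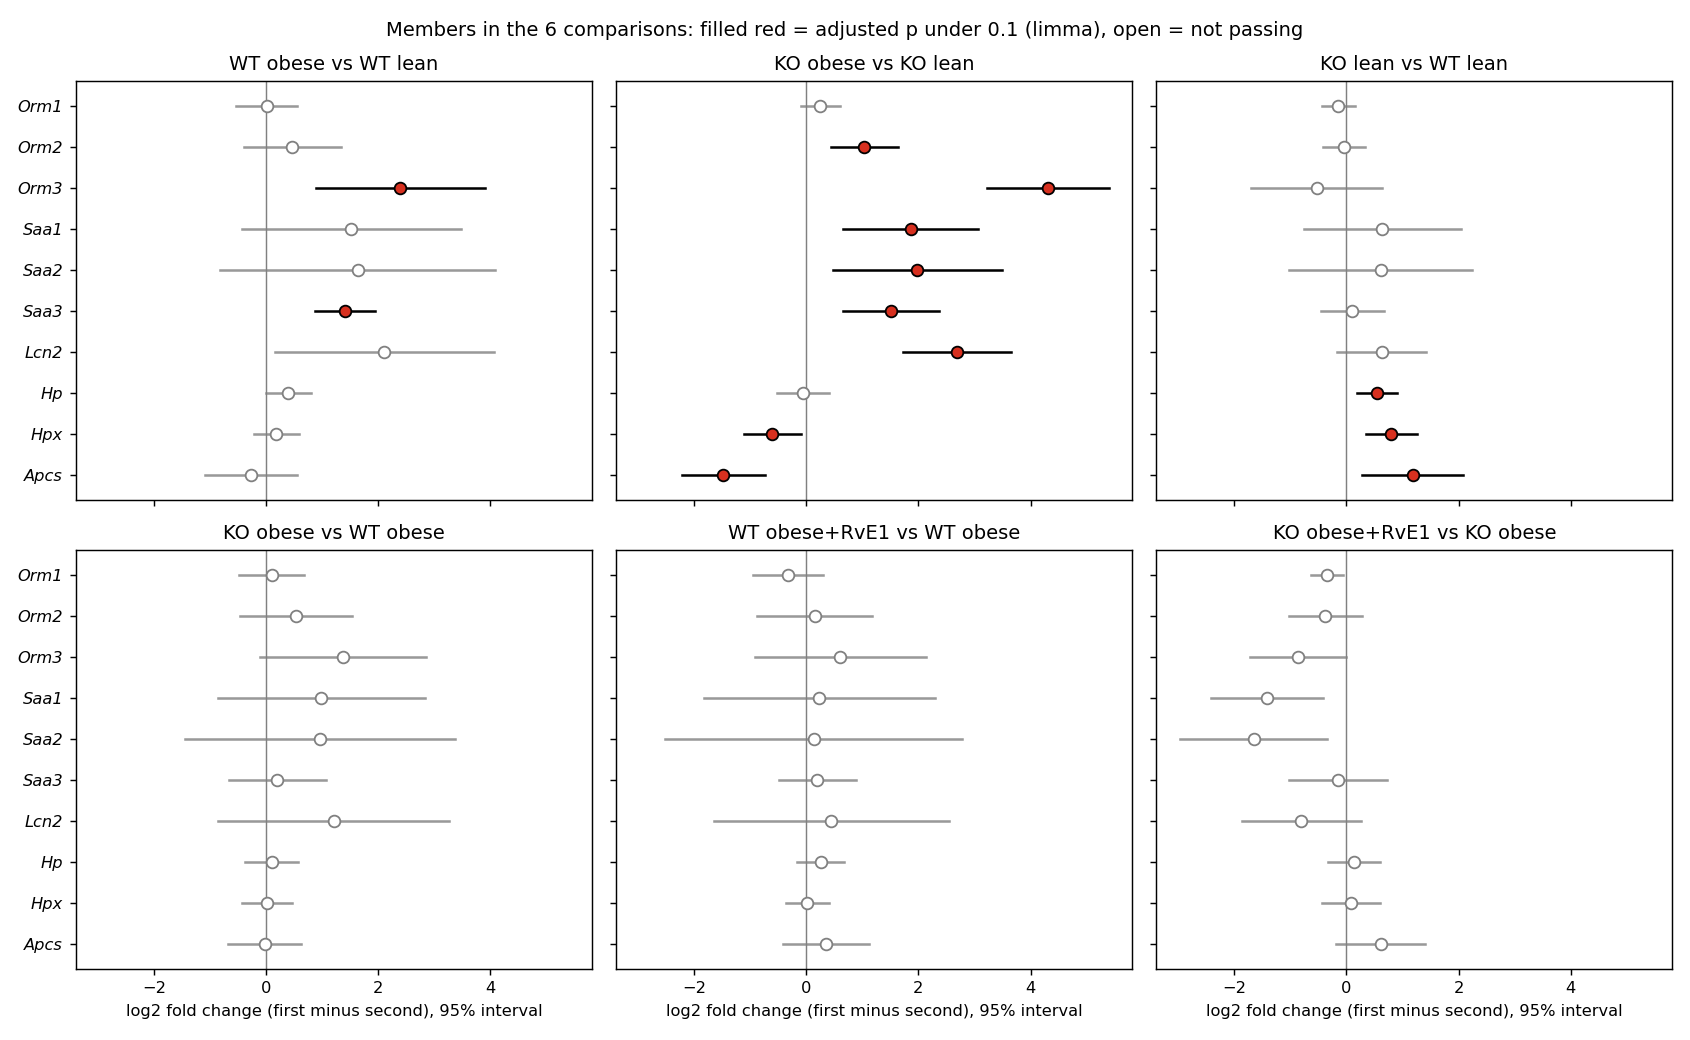
Log2 FC (x axis, first group minus second) of each member (y axis) in the 6 comparisons, with 95% intervals from limma, filled where the adjusted p was below 0.1. In KO obese against KO lean mice 6 members rose and 2 fell, and none passed in the 3 comparisons of the lower row.

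Because Orm reads may be shared, the family was also described by its sum and make-up. The summed normalized count of the 3 Orm genes was 6229 ± 1292 (SD, n = 7) in KO obese against 4881 ± 1362 (SD, n = 7) in KO lean livers, a log2 FC of 0.37 that did not pass (SE 0.17, limma adjusted p = 0.141). In WT mice the log2 FC of the sum was 0.07 (SE 0.27, limma adjusted p = 0.924). Orm1 made up most of it, with a median of 96.2% in WT lean and 88.5% in KO obese mice. The share of Orm3 was 0.0862% to 1.28% with a median of 0.409% in KO lean, and 3.49% to 6.81% with a median of 5.60% in KO obese mice, with no overlap. In WT mice it was 0.232% to 0.775% in lean and 0.524% to 8.16% in obese mice, which overlapped. RvE1-treated obese mice had median Orm3 shares of 3.72% in WT and 2.87% in KO mice. The share of Orm2 had medians of 3.28% in WT lean, 3.93% in WT obese, 6.36% in WT obese+RvE1, 3.56% in KO lean, 5.59% in KO obese and 4.91% in KO obese+RvE1 mice. The share of Saa1 in the sum of Saa1 and Saa2 had group medians from 71.9% to 77.9%, and ran from 57.6% to 84.3% among WT obese mice.

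**Figure D3:**
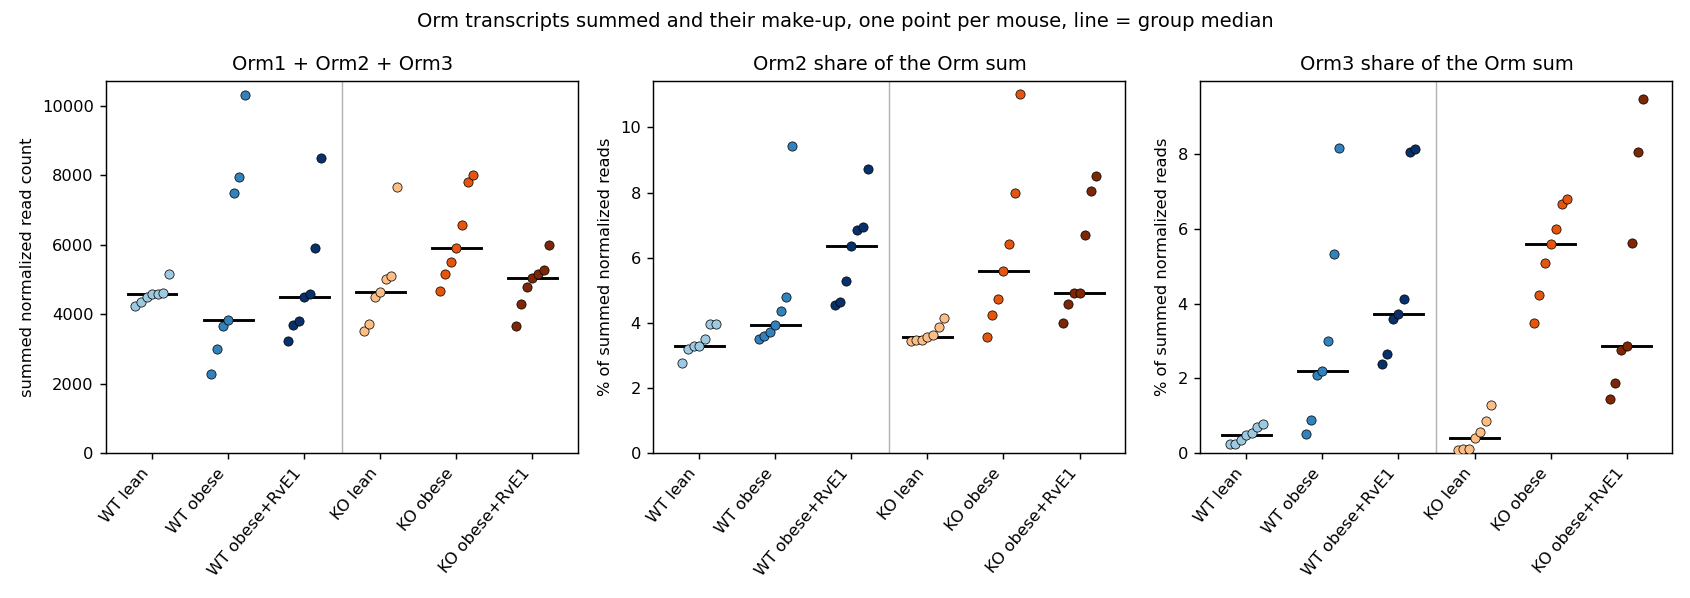
Summed normalized count of the 3 Orm genes (left) and the percent of it from Orm2 (middle) and Orm3 (right) in each mouse, by group, with a line at the median. The Orm3 share was at most 1.28% in KO lean and at least 3.49% in KO obese mice.

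Next, KO lean mice were compared with WT lean mice, which share the KO lean libraries with the KO diet comparison. Hpx, Hp and Apcs were higher in KO lean mice, and the other 7 members did not pass. Across 13031 genes 16.3% passed, and 8.00% of all tested genes passed in the higher direction. Hpx, the heme-binding protein, ran from 67894 to 161438 normalized counts with a median of 93876 in KO lean and from 47467 to 87764 with a median of 55415 in WT lean mice, a log2 FC of 0.80 (SE 0.21, limma adjusted p = 0.0447). Hp ran from 87365 to 166389 and from 68094 to 107538, a log2 FC of 0.55 (SE 0.17, limma adjusted p = 0.0589). Apcs ran from 3936 to 24833 with a median of 15346 and from 2293 to 10782 with a median of 4754, a log2 FC of 1.18 (SE 0.43, limma adjusted p = 0.0907). The groups overlapped for all 3 genes. Orm3 had a log2 FC of -0.53 (SE 0.55), Lcn2 0.63 (SE 0.37) and Saa1 0.64 (SE 0.66), with limma adjusted p of 0.564, 0.291 and 0.564. With library quality weights Orm3 passed as lower, with a log2 FC of -1.28 (limma adjusted p = 0.0807), in a fit where 33.0% of all genes passed.

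These 3 calls were not firm. With 1 mouse left out, Hpx passed in 14 of 14 fits, Hp in 10 and Apcs in 4, those without WT lean mice 19R, 8R or 8RL or KO lean mouse 20R. Hp was lost without WT lean mice 21L or 26R or KO lean mice 20L or 9L. With identifier numbers as a random block 0 members passed and 0.0230% of all genes.

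Kupffer cell markers moved with this contrast. All 5 tested markers were higher in KO lean mice, as were 8.00% of all genes, among them Cd5l with a log2 FC of 1.32 (SE 0.23, limma adjusted p = 0.0247) and Clec4f with 0.98 (SE 0.23, limma adjusted p = 0.0357). With identifier numbers as a random block 0 of the 5 passed, with limma adjusted p from 0.138 to 0.160. In KO obese against KO lean mice 4 of the 5 fell, against 12.1% of all genes, Cd5l by 1.00 on the log2 scale, and the block left these 4 past the threshold. The summed level of the 5 markers, led by Cd5l, was 5624 to 12830 with a median of 6433 in KO lean and 2320 to 5490 with a median of 3312 in WT lean mice of the lean table, without overlap. In the KO diet table the median of KO lean mice was 7084 and that of KO obese mice 4132, where no KO lean mouse was below 6173 and no KO obese mouse above 4660. In the WT diet table they were 3205 in WT lean and 3037 in WT obese mice. With RvE1 and with vehicle they were 4314 and 3586 in the WT table and 5581 and 4168 in the KO table. Its part in the values of Apcs, Hpx and Hp was not tested.

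Of the members, 0 passed in KO obese against WT obese mice, and 0.0141% of 14162 genes did. No member had an unadjusted p below 0.05, while 319 genes did. edgeR and DESeq2 on the recovered reads also passed 0 members. Orm3 came closest, with 200 to 509 normalized counts and a median of 319 in KO obese and 13.2 to 717 and a median of 92.9 in WT obese mice, a log2 FC of 1.37 (SE 0.70, 95% interval -0.10 to 2.85). For Saa1, Saa2 and Lcn2 the sign depended on the test. On the log2 scale the differences were 0.99, 0.97 and 1.21, while edgeR gave -0.40, -1.06 and -0.37. Mean counts were lower in KO obese than in WT obese mice, as was the sign with edgeR. They were 18508 against 24179 for Saa1, 7559 against 15573 for Saa2 and 1674 against 2142 for Lcn2. Medians were higher in KO obese mice, 20738 against 3358, 10305 against 683 and 1484 against 225 in the same order. The cause was not tested. The neutrophil markers listed summed to a median of 369 in KO obese and 132 in WT obese mice, and 0 of the 6 tested passed, while 4 had an unadjusted p below 0.05. Their part was not tested.

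Whether the diet effect differed between genotypes was tested as an interaction over 28 mice. With limma 0 members and 0.00717% of 13941 genes passed. Hpx had an interaction of -0.78 on the log2 scale (SE 0.30, unadjusted p = 0.0147, limma adjusted p = 0.175), Apcs -1.21 (SE 0.56, unadjusted p = 0.0396, limma adjusted p = 0.249) and Orm3 1.92 (SE 0.94, unadjusted p = 0.0509, limma adjusted p = 0.275). At an unadjusted p below 0.05 were 2 of 10 members and 18.3% of all genes, so the members' share was near the background. The larger number of members called in KO than in WT mice was thus not shown to be a difference between genotypes. KO lean mouse 20R, which had the lowest Apcs of its group at 4321 in the KO diet table, decided this result: without it 13.3% of genes passed, among them Hpx (limma adjusted p = 0.0905) and Apcs (limma adjusted p = 0.0826). DESeq2 passed Hpx, against 6.67% of all genes, edgeR 0 members, against 0.00717%, and limma with library quality weights Orm3 and Apcs, against 18.4%.

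RvE1 was then compared with vehicle in obese mice of each genotype. In WT mice 0 of 10 members and 0% of 13085 genes passed, with 795 genes and 0 members at an unadjusted p below 0.05. edgeR and DESeq2 also passed 0 members. Saa1 ran from 1755 to 55606 normalized counts with a median of 7422 in WT obese+RvE1 and from 1503 to 85616 with a median of 3582 in WT obese mice, a log2 FC of 0.23 (SE 0.97) with a 95% interval of -1.83 to 2.29. Lcn2 ran from 297 to 2874 with a median of 642 and from 85.0 to 8280 with a median of 240, a log2 FC of 0.45 (SE 0.99) and an interval of -1.64 to 2.55. Every treated mouse was above the lowest 4 vehicle mice for Lcn2 and below the highest 3. Hp ran from 132292 to 216433 with treatment and from 99373 to 178164 without, a log2 FC of 0.26 (SE 0.20, interval -0.16 to 0.68). With edgeR on reads the signs of Saa1, Saa2, Lcn2, Orm2 and Orm3 were negative, -0.64 for Saa1 and -1.01 for Lcn2.

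In KO mice RvE1 also passed 0 members and 0% of 14207 genes. Here 1179 genes had an unadjusted p below 0.05, 4 of them members, all lower with RvE1, and edgeR and DESeq2 passed 0 members after adjustment. Saa1 ran from 1589 to 17973 normalized counts with a median of 6049 in KO obese+RvE1 and from 6605 to 33881 with a median of 21787 in KO obese mice. The groups overlapped, with treated mice 15-2L and 15R at 17973 and 11281. The log2 FC was -1.42 (SE 0.47, unadjusted p = 0.00829, limma adjusted p = 0.557) with a 95% interval of -2.42 to -0.42. Saa2 had a log2 FC of -1.65 (SE 0.62, limma adjusted p = 0.560), Orm1 -0.34 (SE 0.13, limma adjusted p = 0.572) and Orm3 -0.87 (SE 0.40, limma adjusted p = 0.592). Lcn2 had a log2 FC of -0.80 (SE 0.50, limma adjusted p = 0.642), while Hp, Hpx and Apcs had positive values of 0.13, 0.09 and 0.61. The sum of Saa1 and Saa2 gave -1.48 (limma adjusted p = 0.557).

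Identifier number 23 was the only number found in more than 1 group. Its vehicle mouse 23L had 21787 normalized counts of Saa1, and its treated mice 23-2L and 23RL had 5504 and 5156. For Orm3 the values were 535 in 23L, 499 in 23-2L and 268 in 23RL. Neutrophil S100a9 was lower with RvE1 in KO mice at a limma unadjusted p of 0.0402 (log2 FC -1.66, limma adjusted p = 0.582). Of the neutrophil markers listed, Elane alone had a higher mean, 8.89 in KO obese+RvE1 mice. It was 3.85 in KO obese mice of the KO diet table. The summed neutrophil markers ran from 60.9 to 1007 with a median of 110 in KO obese+RvE1 mice. In KO obese mice of the RvE1 table they ran from 95.3 to 1246 with a median of 383, so the groups overlapped. The part of these markers was not tested. The interaction of RvE1 with genotype passed 0 members and 0% of 13075 genes, with 312 genes and 0 members at an unadjusted p below 0.05. Its value for Saa1 was -1.65 on the log2 scale (SE 1.16, interval -4.01 to 0.72).

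Members varied together between mice of a group. Deviations from the group mean of log2(normalized count + 1) were averaged over the 10 members, and this mean ran from -1.27 in KO lean mouse 14RL to 1.91 in WT obese mouse 6R. The high end also held WT obese mouse 27-2R at 1.38 and WT obese+RvE1 mouse 7RL at 1.24, and the low end WT obese+RvE1 mouse 7L at -1.17. Mouse 14RL had 482 normalized counts of Saa1, against 3722 to 12560 in the other KO lean mice. Over 42 mice the mean deviation had a Pearson r of 0.263 with the neutrophil marker sum, -0.216 with the Kupffer sum, -0.197 with the hepatocyte sum, 0.176 with the adipocyte sum, -0.0656 with the erythroid sum and 0.269 with the total reads, each as a deviation from its group and given as a description.

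**Figure D4:**
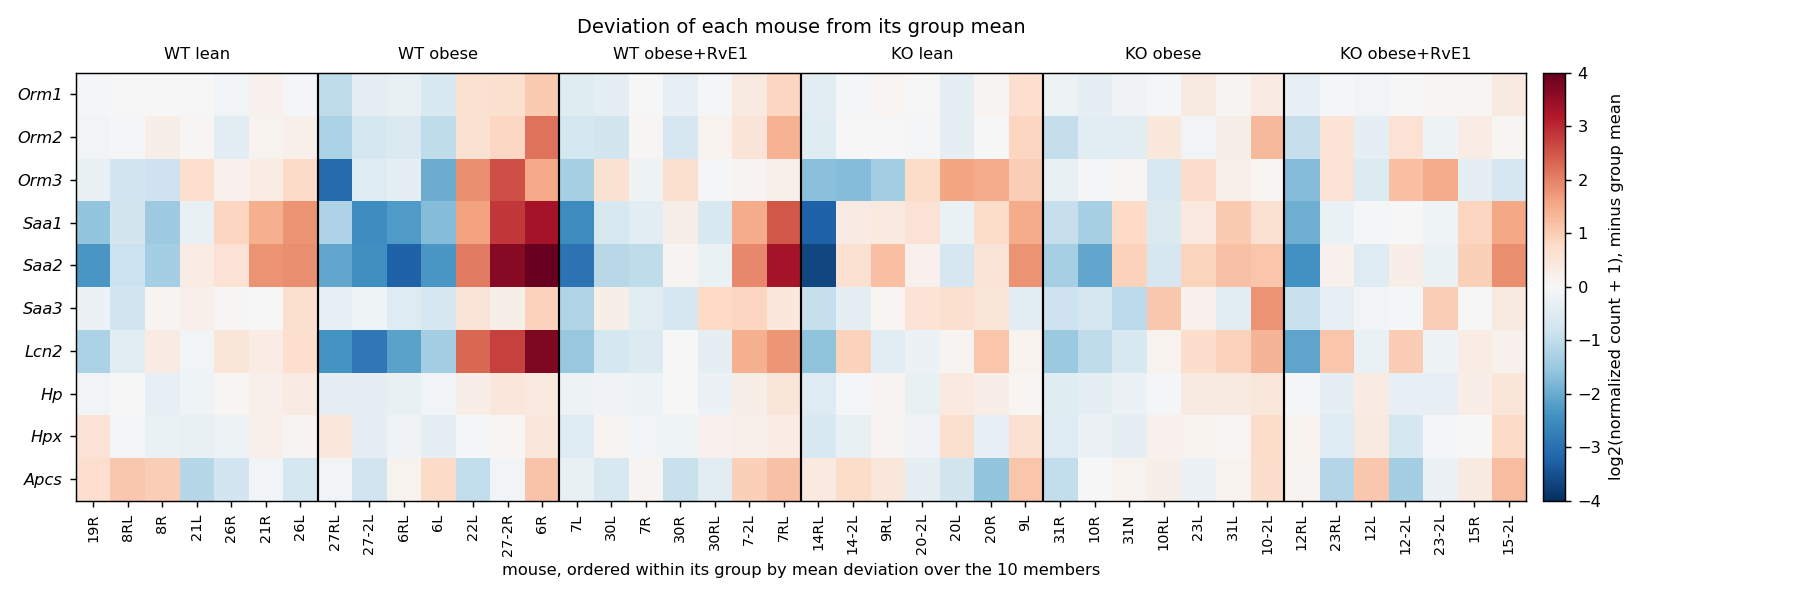
Deviation of each mouse (x axis, ordered within its group by its mean) from its group mean of log2(normalized count + 1) for each member (y axis), in colour. Saa1, Saa2 and Lcn2 deviate most and together, with WT obese mouse 6R highest, while Hp and Hpx stay within a narrow range and Apcs often takes another sign.

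Of 45 pairs of members, 44 had a positive Pearson r over the 42 mice, and 36 had a permutation p that stayed below 0.05 after BH adjustment over the 45 pairs. The median r was 0.523 and 8 pairs exceeded 0.8. Deviations were permuted over all 42 mice and not within groups, although the SD of log2 values differed between groups. For Lcn2 it was 2.80 in WT obese and 0.67 in WT lean mice. Mice with the same identifier number were also treated as separate, so these permutation p-values are approximate and can be too small. As WT obese mice fell into a high and a low set for several members, r was computed again over the 35 mice of the other groups, a choice made after the data were seen. Then 33 pairs had an adjusted p below 0.05, the median r was 0.449 and 2 pairs exceeded 0.8. Saa1 and Saa2, which have 14.8% and 13.3% of stretches of 50 bases in common with another gene, had r = 0.982 (rho 0.974, permutation p = 1e-05 for both, the smallest possible, adjusted p = 3e-05), 0.977 without the 2 mice farthest on Saa1, 0.966 to 0.993 within groups and 0.974 over 35 mice. Saa2 and Lcn2, which share no stretch of 50 bases, had r = 0.876 (rho 0.833, permutation p = 1e-05 for both, adjusted p = 3e-05), 0.853 without the 2 farthest mice, 0.689 to 0.986 within groups and 0.794 over 35 mice. Orm1 and Orm2 had r = 0.883 (rho 0.841, permutation p = 1e-05 for both, adjusted p = 3e-05), 0.843 without the 2 farthest mice and 0.803 over 35 mice.

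Orm3 had r = 0.603 with Orm1 over 42 mice (rho 0.504, permutation p = 1e-05 and 0.00074, adjusted p = 3e-05) and 0.486 without the 2 farthest mice. Over the 35 mice without the WT obese group it was 0.246 (permutation p = 0.156, adjusted p = 0.189). Within groups it ran from 0.066 in WT lean to 0.943 in WT obese mice, and was 0.574 in KO obese mice. For Orm1 and Orm2 the values within groups ran from 0.502 in KO obese+RvE1 to 0.986 in KO lean mice. Whether Orm3 differed from its family in this was not tested. With Apcs, Orm3 had the only negative value, r = -0.390 over 42 mice (rho -0.446, permutation p = 0.0104 and 0.00332, adjusted p = 0.0146), -0.467 without the 2 farthest mice and -0.535 over 35 mice (permutation p = 0.00113, adjusted p = 0.00282). Within groups the r of Orm3 with Apcs ran from -0.933 in WT lean to 0.0459 in KO obese mice. Hp and Hpx, which bind hemoglobin and heme, had r = 0.645 (rho 0.646, permutation p = 1e-05 and 2e-05, adjusted p = 3e-05), 0.607 without the 2 farthest mice and 0.709 over 35 mice.

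**Figure D5:**
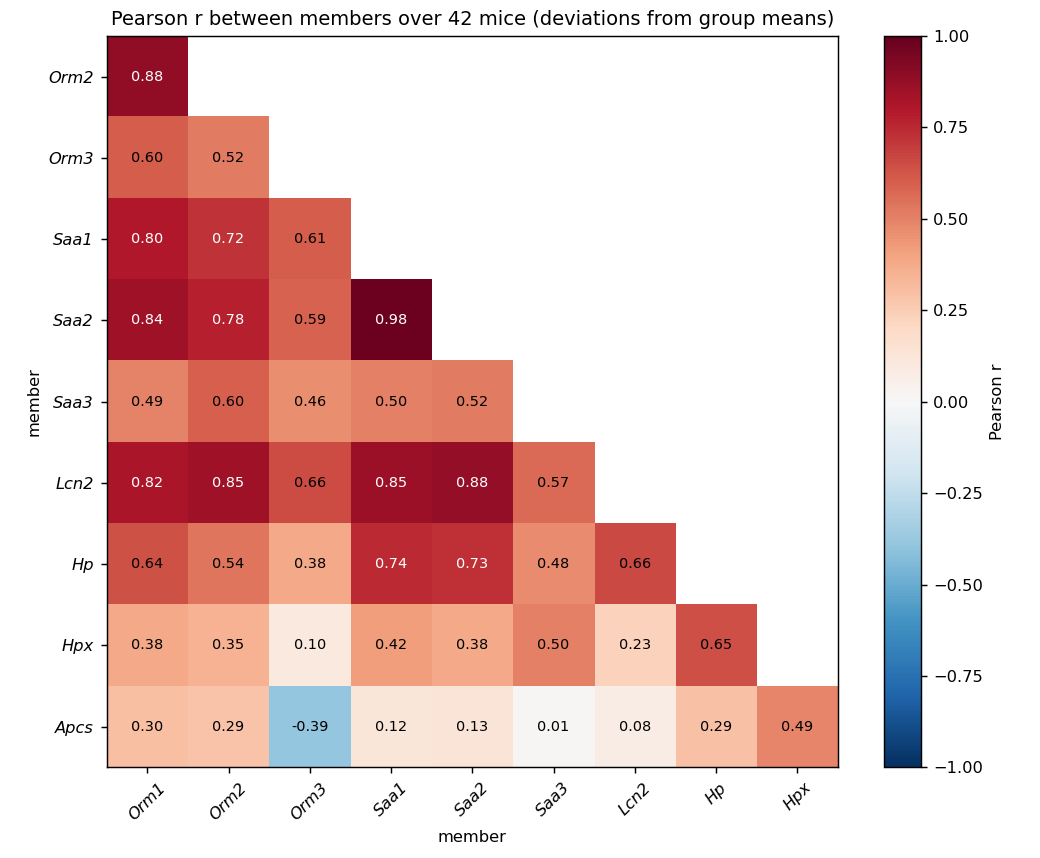
Pearson r between each pair of members over 42 mice, on deviations from group means, with the value in each cell. Lcn2 with Saa1, Saa2, Orm1 and Orm2 and Saa1 with Saa2 are above 0.8, and Orm3 with Apcs is the single negative pair at -0.39.

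Among 13056 genes outside the set, those most like the members' mean deviation over 42 mice were Itih4 (r = 0.722), Serpina3n (0.683), Fgl1 (0.680), Isyna1 (0.642) and Grina (0.618). Without the 2 mice farthest from the median the values were 0.631, 0.658, 0.598, 0.598 and 0.553, and the middle 90% of genes lay between -0.250 and 0.248. None of these 5 passed in any of the 6 comparisons, and Serpina3n, a protease inhibitor, had a log2 FC of 0.39 in WT and 0.46 in KO mice with the high fat diet.

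Other genes of the acute phase response gave a mixed picture. Of 20 genes listed as other positive acute phase genes, 1 rose and 2 fell in WT obese against WT lean mice, where 6.27% of all genes passed. The 1 that rose, Saa4, is the constitutive serum amyloid A, so its calls here are not read as an acute phase response. Saa4 rose from 9328 ± 5256 (SD, n = 7) to 25440 ± 10316 (SD, n = 7), a log2 FC of 1.55 (SE 0.32, limma adjusted p = 0.0151). Hamp2, a hepcidin gene, fell by 0.96 and the pentraxin Crp by 0.40 on the log2 scale, with limma adjusted p of 0.0718 and 0.0790. In KO mice 3 of 20 rose and 0 fell, where 24.1% of all genes passed. With identifier numbers as a random block Saa4 passed in both genotypes and the other 4 calls were lost. Saa4 rose from 12042 ± 7558 (SD, n = 7) to 35647 ± 7600 (SD, n = 7) without overlap, a log2 FC of 1.80 (SE 0.33, limma adjusted p = 0.00478). The copper carrier Cp had 0.54 and the metalloreductase Steap4 1.22, with limma adjusted p of 0.0207 and 0.0363. In KO lean against WT lean mice Cp was lower, with a log2 FC of -0.56 (SE 0.15, limma adjusted p = 0.0458). This call was lost with the block (limma adjusted p = 0.150). The list's median log2 FC was -0.01 in WT and 0.28 in KO mice on the high fat diet. Of 8 negative acute phase genes 0 passed in limma in either direction in any comparison, with 1 at an unadjusted p below 0.05 in KO obese against KO lean and 1 in KO lean against WT lean mice, where 32.0% and 26.8% of all genes were.

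Of 27 genes of cytokine signalling, 24 were tested in WT mice with the diet and 0 passed in limma, with 4 at an unadjusted p below 0.05, where 18.2% of all genes were. In KO mice 25 were tested, 5 rose and 1 fell, a share close to the 24.1% of all genes, so nothing particular to the list is read from it. With identifier numbers as a random block Il6ra and Cebpa passed. Il6ra, the IL-6 receptor chain that binds the ligand, went from 1313 ± 955 (SD, n = 7) in KO lean to 2860 ± 1012 (SD, n = 7) in KO obese mice, a log2 FC of 1.30 (SE 0.34, limma adjusted p = 0.0209). In WT mice its log2 FC was 0.81 (SE 0.41, limma adjusted p = 0.315). The glucocorticoid receptor Nr3c1 rose by a log2 FC of 0.40 and Jak2 by 0.37 in KO mice, with limma adjusted p of 0.0315 and 0.0495. Cebpa, a C/EBP factor of the resting hepatocyte, fell from 53434 ± 13269 (SD, n = 7) to 29842 ± 2804 (SD, n = 7) without overlap, a log2 FC of -0.81 (SE 0.16, limma adjusted p = 0.0064). In KO lean against WT lean mice Cebpa was higher by 0.69 (SE 0.18, limma adjusted p = 0.0417) and Jak2 had a log2 FC of -0.36 (SE 0.13, limma adjusted p = 0.0819). With the block both of these lean calls were lost, with limma adjusted p of 0.146 and 0.203. The signal chain gp130 (Il6st), Stat3, its feedback inhibitor Socs3, Cebpb and Cebpd did not pass with the diet in either genotype. Their log2 FCs were -0.33, -0.34, -0.85, 0.04 and 0.29 in WT and 0.28, 0.20, 0.17, -0.24 and -0.15 in KO mice.

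Of 7 genes for receptors and heme handling, 0 passed in limma in WT mice with the diet, with 1 at an unadjusted p below 0.05. In KO mice the scavenger and hemopexin receptor Lrp1 rose by a log2 FC of 0.59 (limma adjusted p = 0.0617), while Fpr2, a receptor for serum amyloid A, fell by 0.91 (limma adjusted p = 0.0382) and the lipoprotein receptor Scarb1 by 0.26 (limma adjusted p = 0.0875). In that diet comparison 12.0% of all genes passed as higher and 12.1% as lower. In KO lean against WT lean mice Fpr2 was higher without overlap, with a log2 FC of 1.401 (SE 0.27, limma adjusted p = 0.0304). Tlr2 was higher by 0.65 with overlap (limma adjusted p = 0.0357), and Lrp1 was lower by -0.74 (limma adjusted p = 0.0509). In that lean comparison 16.3% of all genes passed and 0.744% did not overlap. Under the random block 0 genes of these 5 lists passed there, so the calls on Cp, Cebpa, Jak2, Fpr2, Tlr2 and Lrp1 were lost, as were those on Lrp1, Fpr2 and Scarb1 in KO mice with the diet. Of 6 glucocorticoid-induced genes, Zbtb16 passed in KO mice with the diet, where 24.1% of all genes passed. Its log2 FC was 2.02 (SE 0.64, limma adjusted p = 0.0449). In KO obese against WT obese mice, with RvE1 and in both interactions 0 genes of these 5 lists passed in limma. At an unadjusted p below 0.05 there were 1 of 66 genes in the first, 4 of 65 and 11 of 66 with RvE1 in WT and KO mice, and 6 and 2 of 65 in the diet and RvE1 interactions. The shares of all genes at that level were 2.25% in the first, 6.08% and 8.30% with RvE1 and 18.3% and 2.39% in the interactions.

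Of the other cell types, few markers were listed. The neutrophil list had 3 of 12 genes in all 6 tables, and 0 passed in limma in any comparison, with 4 of 6 tested at an unadjusted p below 0.05 in KO obese against WT obese mice (2.25% of all genes), 3 of 7 with RvE1 in KO mice (8.30%) and 1 of 7 with the diet in KO mice (32.0%). The adipocyte list had 2 of 6, led by Lipe, and the erythroid list 1 of 6, Alas2. No listed marker was at 0 in all mice of a group. No adipocyte marker passed in limma in KO obese against KO lean mice, with 0 of 2 at an unadjusted p below 0.05. In KO lean against WT lean mice the summed adipocyte markers had medians of 692 and 575, with highest values of 1045 and 602. With identifier numbers as a random block Fabp4 had a log2 FC of 1.01 there (limma unadjusted p = 0.0219, adjusted p = 0.181). The part of these markers in the values of Hpx, Hp and Apcs was not tested.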

How the data were processed

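Whole liver RNA of 42 mice was sequenced by the authors with a TruSeq stranded total RNA kit (the labels also call it polyA RNA) in read pairs, aligned to UCSC mm10 with Bowtie2 and counted per gene with featureCounts, with both ends required to map. The sources used here do not give tool versions, the annotation, the strand setting or the handling of pairs that fit several places. The deposited signal values, per the file headers, are reads divided by DESeq2 size factors of the 14 libraries of each of 6 tables. The authors' mean, log2 fold change, standard error, p-value and adjusted p-value columns were not used. All values (100%) came out as whole reads within 0.1 reads, and a library in several tables had 0 differing reads. No 2 libraries of a group were alike within sampling noise. Depth ran from 15992525 to 43841120 reads, so genes with few reads, such as Orm3 in lean mice, carry more counting error.

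Groups came from the labels, which do not say that the mice of a group came from separate cages or litters, so p-values measure the spread between these mice. Each comparison was fitted with limma 3.58.1 (R 4.3.3, lmFit and eBayes with trend, two-sided) on log2(normalized count + 1) for genes whose normalized counts averaged 5 or more, with BH adjustment over all genes tested. Interactions were fitted over the 28 libraries of 2 tables. Correlations used 100000 permutations of deviations from group means over all 42 mice, not within groups, two-sided, adjusted over 45 pairs. All 10 members were described in every comparison. From each list of other acute phase genes, cytokine signalling, receptors and glucocorticoid-induced genes, up to 3 passing genes per direction were named by adjusted p, with 6 signalling genes named whatever their result, and the 5 genes most like the members. Members, lists and motifs were chosen with earlier results of these data known, and are no independent support. Positions and coding sequences came from GENCODE M21 (GRCm38) and promoters from RefSeq, aligned with Biopython 1.88. Alternatives were pseudocounts of 0.5 and 4, no filter, TMM scaling, edgeR 4.0.16 and DESeq2 1.42.0 on the recovered reads, the identifier number as a random block, quality weights, summed families, a fold above 1.5, an adjusted p below 0.05 and leaving out each mouse. The fits were tested on simulated data. Results on a further marker gene and a further sequence are not reported here.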

Additional observations from a re-analysis of the deposited data

Results flagged for a closer look

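Within each group of 7 mice, a mouse was singled out where its gap to the nearest other mouse took a larger part of the group's range than Dixon's critical value for 7 mice allows, with gaps taken on log2(normalized count + 1). This happened in 5 of 60 groups, or 8.33%, where chance gives about 1 in 20. WT lean mouse 21R had the highest Orm1, 4971 normalized counts against a group median of 4390. KO lean mouse 9L had the highest Orm2, 317 against a median of 173. WT obese+RvE1 mouse 7L had the lowest Orm3, 77.4 against a median of 211. KO lean mouse 14RL had the lowest Saa1, 482 against a median of 5897. KO obese+RvE1 mouse 12RL had the lowest Lcn2, 185 against a median of 912. With gaps taken on normalized counts, a choice made after the data were seen, 7 groups were singled out, those of 21R for Orm1 and 9L for Orm2 again and 5 others, among them WT obese mouse 6R for Orm2, at 971 against a median of 143.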

How the results depend on the processing

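Of 2494 values under other settings, most kept their direction and their side of the threshold, and the cause of the changes was not tested. This tally says little of how firm the calls were. Most values came from fits with 1 mouse left out, and most were for members that did not pass in that comparison. The fold above 1.5 and the adjusted p below 0.05 reused the main fit, so direction could not change there. The members that passed numbered 2 in WT obese against WT lean mice, but 5 with DESeq2, 1 with identifier numbers as a random block and 1 at an adjusted p below 0.05. In KO obese against KO lean mice they numbered 8, and 4 with the block, and in KO lean against WT lean mice 3, but 0 with the block and 1 at an adjusted p below 0.05. In KO obese against KO lean mice Saa2 and Hpx, with limma adjusted p of 0.0702 and 0.0979, were lost at an adjusted p below 0.05. Saa2 was also lost with quality weights (1.59, limma adjusted p = 0.152) and Hpx with no filter (-0.60, limma adjusted p = 0.1075). In the diet by genotype interaction 0 passed, but 1 with DESeq2 and 2 with quality weights, fits in which 6.67% and 18.4% of all genes passed. The sum of Saa1 and Saa2 in KO obese against KO lean mice was 1.95 with the block and did not pass (adjusted p = 0.136). With 1 mouse left out, the members that passed ranged from 1 to 2 in WT obese against WT lean, 6 to 8 in KO obese against KO lean, 1 to 3 in KO lean against WT lean and 0 to 2 in the diet interaction, and were 0 in all fits of the other 4 tests. No paired analysis was possible because the groups compared share at most 1 identifier number, 23, found in KO obese and KO obese+RvE1 mice, and the labels give no other number that pairs mice.

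Log2 fold changes that changed sign did not pass under either setting. In KO obese against WT obese mice, edgeR and DESeq2 gave Orm1 -0.0582 and -0.0479, Saa1 -0.40 and -0.39, Saa2 -1.06 and -1.04, and Lcn2 -0.37 and -0.36, and edgeR gave -0.0223 for the Orm sum and -0.62 for the Saa sum. In WT obese+RvE1 against WT obese mice they gave Orm2 -0.17 and -0.16, Orm3 -0.33 and -0.32, Saa1 -0.64 and -0.63, Saa2 -1.06 and -1.06, and Lcn2 -1.01 and -1.004, and edgeR gave Hpx -0.001326 and the Saa sum -0.79. In the diet interaction they gave Saa1 -0.92 and -0.93, Saa2 -1.59 and -1.602, and Lcn2 -1.09 and -1.10, and edgeR gave the Saa sum -1.15. In the RvE1 interaction they gave Orm1 0.0959 and 0.0837, and Lcn2 0.18 and 0.16, and edgeR gave the Orm sum 0.0569. In KO lean against WT lean mice they gave Orm2 0.0112 and 0.0136. The sum of the Orm genes, most of it Orm1, was -0.28 in WT obese+RvE1 against WT obese mice, where Orm2 and Orm3 alone were positive, and says nothing of their own sign. TMM scaling gave Orm1 0.0061 in the RvE1 interaction. The block gave Apcs 0.0289 in KO obese against WT obese, and Saa2 -0.10 and the Saa sum -0.0088 in WT obese+RvE1 against WT obese mice. Quality weights gave Orm1 -0.0077 and Apcs 0.0498 in WT obese against WT lean, Orm2 0.0011, Saa1 -0.0219 and Saa3 -0.21 in KO lean against WT lean, Hp -0.022 in KO obese against WT obese mice and Hp 0.0594 in the RvE1 interaction.

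With 1 mouse left out, values ranged across 0 for Orm1 in WT obese against WT lean (-0.16 to 0.18), and for Hp in KO obese against KO lean mice (-0.14 to 0.023). In KO lean against WT lean mice Orm2 ranged from -0.18 to 0.0448 and Saa3 from -0.0269 to 0.26. In KO obese against WT obese mice Orm1 ranged from -0.0704 to 0.27, Saa3 from -0.10 to 0.38, Hpx from -0.10 to 0.11 and Apcs from -0.19 to 0.17. In WT obese+RvE1 against WT obese mice Orm2 ranged from -0.0803 to 0.51, Saa1 from -0.19 to 0.79, Saa2 from -0.42 to 0.86, Lcn2 from -0.025 to 1.07 and Hpx from -0.0467 to 0.11. In KO obese+RvE1 against KO obese mice Saa3 ranged from -0.33 to 0.15 and Hpx from -0.0431 to 0.21. In the diet interaction Saa1 ranged from -0.19 to 0.90, Saa2 from -0.26 to 1.08 and Saa3 from -0.20 to 0.28, and in the RvE1 interaction Orm1 ranged from -0.19 to 0.16 and Hpx from -0.0613 to 0.19.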
